A study of Homo sapiens with 108 samples.

Results

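The shift shared by 5 zinc-finger knockdowns of HEK293T cells was measured in SLAM-seq libraries, in the number of reads per gene and in the T>C label that those reads carried. Libraries titled as knockdowns of MAZ, PHF7, ZMAT3, ZMAT5 or ZNF706 formed one side, with each arm given equal weight, and libraries of the non-targeting hairpin (NT) and of the BRCA1 knockdown formed the other. Of 108 libraries in the series, 83 were used: 59 of the 5 arms and 24 controls. Each arm held 3 biological replicates at 0, 2, 4 and 8 h of chase, 12 libraries, apart from PHF7 with 11, because its replicate 3 at 8 h held 63659 reads and was left out. Apart from that library, which was left out for its depth, the members were taken by title.

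All groups were HEK293T, a transformed line derived from human embryonic kidney. The cells were infected with a lentivirus carrying a short hairpin RNA (shRNA) and selected with puromycin, so the NT cells went through the same infection and selection. They then stood in 10 µM 4-thiouridine (4SU) for 24 h, with fresh 4SU medium every 8 h, and were chased with 1 mM uridine. The labels name no second hairpin for any arm, so an effect of the hairpin itself and an effect of the lost protein cannot be told apart within an arm. A difference seen in 5 arms at the same time is likewise a difference from NT and BRCA1 cells, and it can lie on either side of the comparison.

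MAZ is a transcription factor that binds GC-rich promoters. ZMAT3 is an RNA-binding protein induced by p53, ZMAT5 is a protein of the minor spliceosome, PHF7 is a PHD-finger protein, and ZNF706 is a small protein with a single zinc finger. BRCA1 acts in repair of broken DNA by homologous recombination and is also a ubiquitin ligase. In SLAM-seq, 4SU that enters new RNA is alkylated and then read as C, so the T>C rate of an mRNA measures how much of it was made during labelling, and the fall of that rate in the uridine chase follows its decay. A read count, in contrast, follows the level of the mRNA whatever its age.

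An shRNA can lower mRNAs other than its target through pairing of its seed, the bases 2 to 8 of the guide strand, so the hairpins of 3 arms and of NT are shown first; those of MAZ, ZNF706 and BRCA1 are not shown here. Each is given as the stretch of target sense strand that it copies, 5′ to 3′, and the capitals, bases 14 to 20 of the 21, are those that pair with the seed. They are the designed sequences listed for the study's knockdown reagents.
PHF7: ccgcaagtgcataCAGAAATa
ZMAT3: catggtaagaaacTCCGAAAt
ZMAT5: gaaggtctggtacGACATGTt
non-target: caacaagatgaagAGCACCAa
The 4 seed matches were distinct. On hg38 the PHF7 target spans a junction of coding exons, chr3:52421047-52421062 and chr3:52421648-52421652 on the plus strand, and is in 7 of the 10 annotated PHF7 transcripts. The ZMAT3 target lies in a coding exon at chr3:179030970-179030990 on the minus strand, and the ZMAT5 target in a coding exon at chr22:29748423-29748443 on the minus strand.

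The libraries of the 5 arms were deeper than the controls, with 9347942 to 30750027 reads in 3′ UTRs (median 18572046) against 4577042 to 13359455 (median 9805687). They also held more detected genes, 11609 to 13975 against 10102 to 11825. Thinned to 4577042 reads each, the ranges were 11480 to 13370 (median 12820) and 10102 to 11611 (median 11245), which overlapped at their ends. Thinning sets the number of reads equal, not that of the RNA molecules behind them. Replicates varied more in the controls: the median SD of a gene's log2 level over replicates was 0.41 to 0.56 across the NT and BRCA1 groups, 0.16 to 0.26 in PHF7, ZMAT3 and MAZ, and 0.28 to 0.41 in ZMAT5 and ZNF706. All 10 genes fixed as markers of HEK293T cells were detected in some libraries of each side, though not all of them in each library. PAX2 had no read in 33 libraries of the 5 arms and in 19 of the controls, and LHX1 had none in 10 libraries of each side. The summed level was 919 to 1728 CPM in the 5 arms and 683 to 1276 in the controls. VIM made up most of it, at 918 and 652 CPM, so the sum mainly follows that gene. Of 24 markers of other cell types, 22 and 17 were detected, with summed levels of 9.53 to 49.4 and 7.77 to 43.9 CPM, COL1A1 the highest, and HBB and MYH7 had no read in any of the 83 libraries.

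The targeted mRNAs were read first, in CPM normalised by TMM, as all levels below. MAZ (chromosome 16, 29806106 to 29811164, plus strand) stood at 82.1 to 122 CPM, median 102, in its own arm, against 630.4 to 1199, median 839, in the 24 controls. It was also below the controls in the other 4 arms, with medians of 437 in PHF7, 530.0 in ZMAT3, 281 in ZMAT5 and 428 in ZNF706, and 57 of 59 libraries lay below every control. The mean over the 5 arms was lower by a log2 difference of −1.46 (SE 0.05, edgeR adjusted p = 1.13e-48), and the arms differed from one another (adjusted p = 2.76e-43). In 2 further knockdowns outside this comparison, labelled CNOT4 and ZFP36L1, MAZ was also lower than in the controls, by log2 −1.03 and −1.01.

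ZMAT5 (chromosome 22, counted bases shared with another gene) was at 0 to 4.27 CPM, median 1.32, in its own arm against a control median of 16.1, log2 −3.50 with an edgeR adjusted p of 3e-16. ZMAT3 (chromosome 3) was at 2.04 to 15.9, median 6.27, against 19.8 (log2 −1.73, adjusted p = 2.13e-07), and ZNF706 at 9.51 to 43.3, median 24.2, against 48.9 (log2 −1.22, adjusted p = 1.52e-08). Among the other arms, ZNF706 was also lower in the ZMAT5 arm (log2 −0.80, adjusted p = 9.36e-05). PHF7 mRNA was too thinly covered to check its arm, with no read in 14 of 24 controls and a log2 difference of −0.66 in its own libraries (adjusted p = 0.647). BRCA1 mRNA, in its own arm a control here, had a median of 52.2 CPM against 98 in NT (log2 −0.90, edgeR adjusted p = 0.000661), and its 5-arm mean was log2 0.44 above the controls (SE 0.10, adjusted p = 0.000667) but log2 −0.01 from NT alone.

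Of 14957 genes tested in read counts, the mean of the 5 arms was higher in 1643 (11.0% of genes tested) and lower in 1017 (6.8%), at an edgeR adjusted p under 0.05 and a fold over 1.2. A gene was called common where each arm taken alone was also called in that direction. That held for 223 genes higher (1.49%) and 132 lower (0.883%). These contrasts share their 24 control libraries, so the 5 arms were not independent of one another, and a deviation of the controls enters all of them. The 132 lower mRNAs were mostly well expressed, with a median of 80.7 CPM and 130 of them at 10 CPM or more. The 223 higher ones were mostly close to undetected, 149 of them under 1 CPM and 38 at 10 CPM or more. BRCA1 against NT in the same fit gave 796 genes (5.32%), 364 higher and 432 lower. In bulk RNA, fewer cells with an mRNA and less of it per cell cannot be told apart.

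Single arms gave 1622 higher and 750 lower genes in MAZ, 2101 and 1136 in PHF7, 1610 and 923 in ZMAT3, 1836 and 1158 in ZMAT5, and 1295 and 771 in ZNF706. The arms differed among themselves in 4530 genes (30.3%). The median log2 difference over all tested genes was 0.08 for the 5-arm mean, and 0.02 over the 9105 genes at 10 CPM or more.

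With counts summed to 1 value per arm, so that 7 arms and not 83 libraries were the replicates, 44 genes were lower (0.294%) and 3 higher (0.0201%). Of the 44, 41 were among the 132 common ones, and the 3 higher, COL26A1, C4orf47 and NFATC2, were common too. In the fit with the arm as a random block, 122 of the 132 lower genes and 60 of the 223 higher ones were called.

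The 132 common lower mRNAs had a median log2 difference of −0.73, and arm medians of −0.68 in MAZ, −0.83 in PHF7, −0.69 in ZMAT3, −0.72 in ZMAT5 and −0.67 in ZNF706. BRCA1 against NT had a median of 0.08 over the same genes and was called in 3 of them. The genes were called over all 4 chase times together, so a sign shared between the times was largely given by that choice. It was shared in all 132, with medians of −0.62, −0.75, −0.78 and −0.79 at 0, 2, 4 and 8 h. Of the 223 common higher genes, 221 had the same sign at 0 h and 222 at 2 h, and all had it at 4 and 8 h. In size, 71 of the 132 lower genes still differed among the arms.

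PRKCSH, the regulatory subunit of glucosidase II in the endoplasmic reticulum (chromosome 19, 11435284 to 11450968, plus strand), was at 33.1 to 80.9 CPM (median 53.8) in the 5 arms and 84.4 to 204 (median 126) in the controls. The 59 and 24 libraries did not overlap, and the log2 difference was −1.20 (SE 0.06, adjusted p = 1.82e-30). Such a gap was found in 3 of 14957 genes lower (0.0201%) and 0 higher (0.0%). The others were DNAJC7, a co-chaperone whose counted bases are shared with another gene, at 119 to 215 (median 170) against 243 to 499.7 (median 328), and RPS9, a protein of the small ribosomal subunit, at 186 to 461 (median 301) against 484 to 721 (median 552). Multimapped reads made up 99.3% of those of RPS9, so its copies cannot be separated.

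SCAF1 (chromosome 19, 49642209 to 49658642, plus strand), a protein with an SR-rich region that binds the tail of RNA polymerase II, had the largest weakest-arm difference. It was at 9.5 to 59.3 CPM (median 26.7) against 45.6 to 146 (median 78), and 56 of 59 libraries were below every control. The log2 difference was −1.62 (SE 0.10, adjusted p = 5.96e-27), from −1.41 in PHF7 to −2.03 in ZMAT5. It was also −1.61 and −1.79 in the knockdowns labelled CNOT4 (0 to 4 h) and ZFP36L1. Over all 132 common lower genes, though, the medians in those 2 knockdowns were −0.06 and −0.18, against −0.73 in the 5 arms. Their libraries also held more multimapped reads, with a median of 10.4% against 6.74% in the controls. PTMS, parathymosin, a small acidic nuclear protein, was at 31 to 88.4 (median 55.1) against 63.5 to 204 (median 145), log2 −1.31 (SE 0.08, adjusted p = 1.78e-27), with 38 libraries below all controls. ZNF768, a zinc-finger protein (chromosome 16, 30524004 to 30526821, minus strand), was at 33.2 to 89.9 (median 52.7) against 78.9 to 174 (median 126), with 57 libraries below all controls and a log2 difference of −1.22 (SE 0.07, adjusted p = 1.26e-28).

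Next by rank came RRBP1, a ribosome receptor of the endoplasmic reticulum, with a median of 20.2 against 49.6 CPM (log2 −1.27, SE 0.12), and COPE, a subunit of the COPI vesicle coat, with 37.7 against 75.8 (log2 −1.12, SE 0.09). FKBP8, an immunophilin of the outer mitochondrial membrane, had 34.3 against 78.2 (log2 −1.12, SE 0.11), and MPST, a mercaptopyruvate sulfurtransferase, had 26.9 against 65.3 (log2 −1.14, SE 0.12). The libraries of both sides overlapped in these 4 mRNAs. NDUFB7, a subunit of respiratory complex I, was at 15.1 to 53.1 against 44.5 to 139 (medians 34 and 78.9), with 53 libraries below all controls and log2 −1.22 (SE 0.08, adjusted p = 7.55e-25).

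The remaining lower mRNAs named by rank were ZC3H3, a zinc-finger protein of mRNA export (log2 −1.35, SE 0.24, adjusted p = 8.99e-06), P2RY11, a purinergic receptor that shares counted bases with a neighbour (log2 −1.40, SE 0.23, adjusted p = 7.71e-07), and CILP2, an extracellular matrix protein (log2 −1.11, SE 0.14, adjusted p = 4.8e-10). ZC3H3 and P2RY11 were the thinnest, with medians of 6.1 and 7.84 CPM in the 5 arms and 17.7 and 19.1 in the controls, and with 0 CPM in at least 1 control library of ZC3H3. With counts summed per arm, 11 of the 12 had an adjusted p of 0.0014 to 0.02, and P2RY11 had 0.06. Of the 132 common lower genes, 45 lie on chromosome 19, as do 1101 of the 14957 tested.

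**Figure D1:**
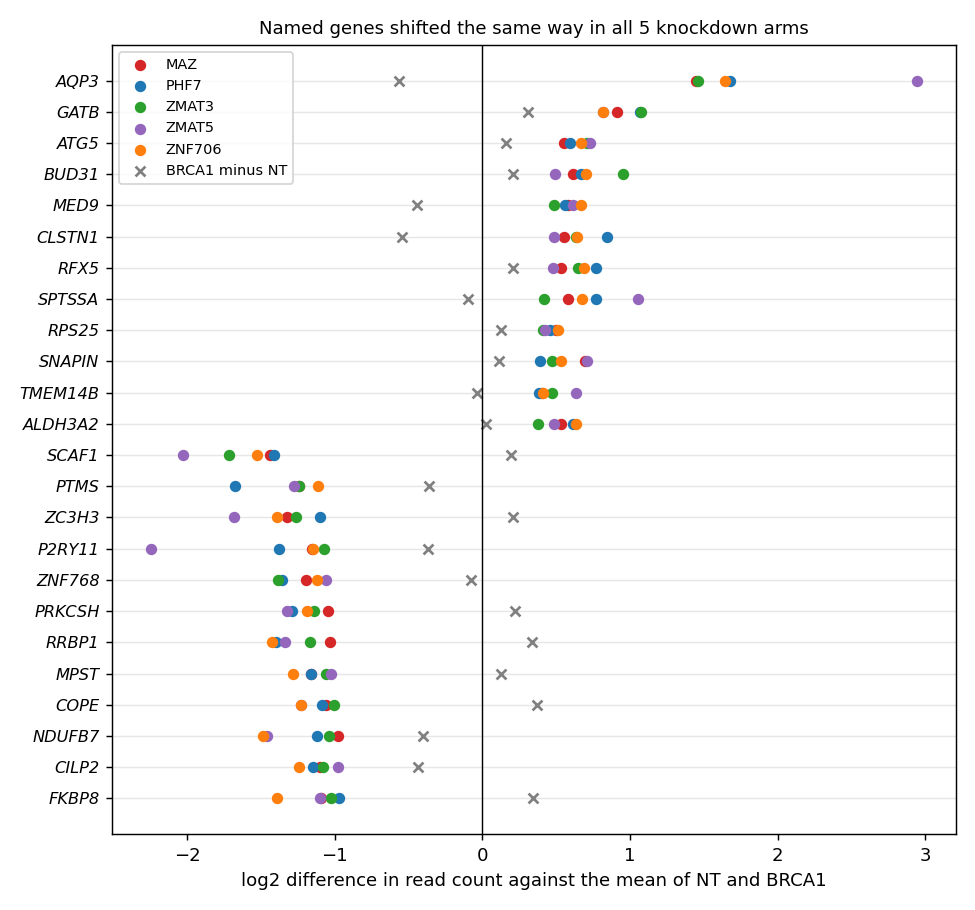
Log2 difference in read counts of each arm from the mean of NT and BRCA1 (horizontal axis, coloured dots, 1 per arm) and of BRCA1 from NT (grey crosses) for the 24 genes named by rank. The dots of the 12 lower genes all lie below −0.9 and those of the 12 higher genes all lie above 0.3, while the crosses lie between −0.57 and 0.38. The genes were picked by the difference in their weakest arm, so the side on which the dots lie was given by that choice.

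The 38 common higher genes at 10 CPM or more had a median log2 difference of 0.48. TMEM14B, a mitochondrial membrane protein (counted bases shared), was at 182 to 436 CPM (median 258) against 111 to 244 (median 196), log2 0.46 (SE 0.06, adjusted p = 7.52e-10), and 37 of 59 libraries were above every control. RPS25, a small-subunit ribosomal protein (counted bases shared), was at 263 to 591 (median 386) against 217 to 380 (median 276), log2 0.46 (SE 0.06, adjusted p = 9.87e-11), with 32 libraries above all controls. SPTSSA, a small subunit of serine palmitoyltransferase (chromosome 14, 34432788 to 34462240, minus strand), was at 70 to 216 (median 123) against 44 to 127 (median 69.8), log2 0.70 (SE 0.08, adjusted p = 1.05e-11), with 26 above. In each of these the groups overlapped but their medians were apart.

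GATB, a subunit of the mitochondrial glutamyl-tRNA amidotransferase, had medians of 29.9 and 12.9 CPM (log2 0.94, SE 0.17), ATG5, an autophagy protein, 67.5 and 48.9 (log2 0.65, SE 0.14), and RFX5, a transcription factor of class II histocompatibility genes, 92.3 and 58.4 (log2 0.62, SE 0.08). SNAPIN, a SNARE-associated protein, had 168 and 114 (log2 0.56, SE 0.06), BUD31, a splicing factor, 71.3 and 41.9 (log2 0.68, SE 0.10), and CLSTN1, calsyntenin 1, 66.8 and 47.8 (log2 0.63, SE 0.10). The last 3 share counted bases with another gene, and CLSTN1 also differed between BRCA1 and NT (log2 −0.54, adjusted p = 0.029). ALDH3A2, a fatty aldehyde dehydrogenase, had 89.4 and 67.3 (log2 0.53, SE 0.09). AQP3, a water and glycerol channel, had the largest weakest-arm difference at 1.58 to 39.6 CPM (median 11.5) against 0 to 12.6 (median 1.66), log2 1.83 (SE 0.39, adjusted p = 0.000148), from 1.45 in MAZ to 2.94 in ZMAT5. MED9, a subunit of Mediator, was at 37.9 to 112 CPM (median 60.1) against 8.22 to 109 (median 37.8), log2 0.58 (SE 0.12, adjusted p = 0.00013), with 1 of 59 libraries above all controls and a log2 difference of −0.09 at 0 h. None of these 12 higher mRNAs was called with counts summed per arm (adjusted p = 0.053 to 0.21), unlike 11 of the 12 lower ones.

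**Figure D2:**
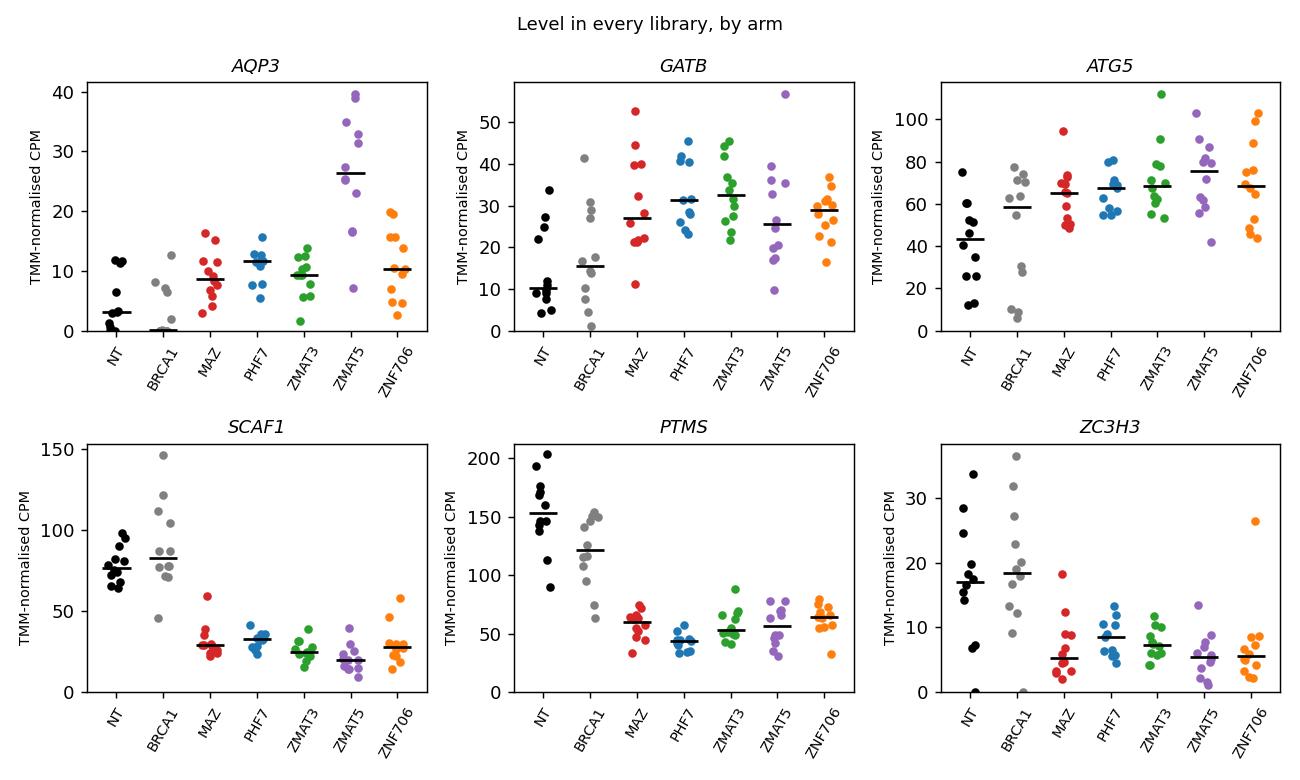
TMM-normalised CPM (vertical axis, linear scale) of 6 named genes in each library, by arm, with a bar at the arm's median. SCAF1, PTMS and ZC3H3 sit lower in each of the 5 arms than in NT and BRCA1, and AQP3, GATB and ATG5 sit higher, while libraries of both sides overlap in all 6 genes, with 22, 8 and 16 of 59 above every control in the last 3.

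The larger part of the common higher genes rested on sparse counts. Of the 223, 185 had no read in at least 12 of the 24 control libraries, which was so for 3797 (25.4%) of all tested genes, and 76 had no read in any control. The 2 controls themselves were called different in 42 of the 223 (18.8%), against 5.32% of all genes. Reads of the 223 were found in 33 of the 59 libraries at the median and in 7 at the fewest, so no fold is given for the thin ones. GMIP had reads in 59 of 59 libraries of the 5 arms (3873 reads) and in 7 of 24 controls (424 reads), at up to 13.7 and 13.1 CPM. S100A4, a calcium-binding protein, had reads in 57 and 8 libraries, NFASC, a neuronal adhesion protein, in 55 and 5, and RCOR2, a corepressor, in 55 and 4. COL26A1, a collagen, was above all controls in 47 libraries of the 5 arms, with a median of 0.997 CPM against a highest control of 0.274. These thin genes were picked after their values were seen. With genes under 10 CPM left out, 26 genes were common higher and 164 common lower, so the split then ran the other way.

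Genes of fixed lists were counted next, as called by the edgeR fit over all genes, in which 11.0% were higher and 6.8% lower. These counts are a description. Of 32 proteins of the small ribosomal subunit, 10 were higher and 2 lower, with a median log2 difference of 0.14 against 0.08 over all genes. RPS19, at a median of 507 against 349.8 CPM, was common to the 5 arms (log2 0.56). RPS26 was too (log2 0.73), but 95.7% of its reads were multimapped. The list's medians were 0.38 in MAZ, −0.24 in PHF7, −0.05 in ZMAT3, 0.18 in ZMAT5 and 0.31 in ZNF706. Of 47 large-subunit proteins, 4 were higher and 1 lower (median 0.08), and 45 differed among the arms.

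Of 41 translation factors, 6 were lower and 3 higher (median −0.02), beside 6.8% lower and 11.0% higher over all genes. EIF5A, the factor that carries hypusine and helps elongation, was at 73.1 to 518 CPM (median 312) against 163 to 945 (median 727), log2 −1.15 (SE 0.08, adjusted p = 4.52e-23). DOHH, which completes the hypusine of EIF5A and is in none of the lists, was also common lower, with a median of 13.2 against 28.9 (log2 −1.12, SE 0.18, adjusted p = 3.8e-07). It was picked from the common genes after their values were seen. EIF4A1, the helicase of the cap-binding complex (counted bases shared), was common lower at 1100 against 1654 CPM (log2 −0.58), and its partner EIF4G1 was lower at 317 against 483 (log2 −0.52). RACK1, a scaffold protein on the ribosome, was higher at 3331 against 2579 (log2 0.34). Of 40 ribosome biogenesis factors, 8 were lower and 2 higher (median −0.09), with RRP1 common lower (log2 −0.80) and NHP2 common higher (log2 0.39, counted bases shared).

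Of 75 nuclear-encoded respiratory-chain subunits, 12 were higher and 7 lower (median 0.04), beside the 11.0% and 6.8% over all genes: NDUFB8 was common higher (log2 0.43, counted bases shared) and NDUFB7 common lower. Of 72 mitochondrial ribosomal proteins, 13 were higher and 5 lower (median 0.06), with MRPL27 common higher (log2 0.46) and MRPL28 (log2 −1.21, 24.1 against 51.5 CPM), MRPL4 (log2 −0.76) and MRPL41 (log2 −0.49) common lower. The 5 mRNAs of the mitochondrial genome that the files hold had a median of −0.35, with 4 lower and 0 higher, and 1 common lower. All 5 differed among the arms, with list medians from −0.72 in PHF7 to −0.03 in ZMAT5. MT-ATP6, a subunit of ATP synthase, was common lower at 3184 against 4814 CPM (log2 −0.64). Proteasome subunits gave 6 higher and 2 lower of 31 (median 0.14), among them PSMB6 common higher (log2 0.40) and PSMD3 common lower (log2 −0.53).

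Among RNA-binding and decay proteins, KHSRP, which binds AU-rich elements and promotes decay, was common lower at 575 against 969.7 CPM (log2 −0.75). It was 1 of 4 lower and 1 higher of 24 such stability regulators (median −0.09), beside 6.8% lower and 11.0% higher over all genes. LSM7, of a ring that promotes decapping of deadenylated mRNA, was the only common gene among 57 of the decay machinery (log2 −0.86, 77.6 against 148 CPM), of which 4 were lower and 2 higher (median 0.00). Of 42 splicing proteins 5 were lower and 1 higher (median −0.04), with SNRNP70 of the U1 snRNP common lower (log2 −0.53), and of 14 minor spliceosome proteins 2 were lower and 2 higher. TXNL4B, a relative of a spliceosomal thioredoxin-like protein, was the larger riser of these at 41.7 against 23.2 CPM (log2 0.80).

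Stress and signalling genes were counted in the same way. Of 36 immediate-early and short-lived regulators, 6 were higher and 4 lower (median 0.04). ID3, an inhibitor of helix-loop-helix factors, was common lower at 206 against 313 CPM (log2 −0.68), as was JUND, an AP-1 subunit, at 128 against 199 (log2 −0.67). ATF3 was higher (log2 0.58) but not in each arm. HMOX1, haem oxygenase, was lower at 72.7 against 177 (log2 −1.08) among 18 NRF2 and metallothionein genes with 3 higher and 3 lower, and BBC3 was lower (log2 −0.71) among 25 p53 targets with 4 lower and 0 higher. SQLE and FASN, enzymes of sterol and fatty-acid synthesis, were common lower (log2 −0.58 and −0.53) among 33 genes with 5 lower and 1 higher. Of 36 interferon-stimulated genes 11 were higher and 1 lower (median 0.39), beside 11.0% and 6.8% of all genes and 24.7% and 3.24% of the 2713 genes under 1 CPM. Its leading genes were thin: IFI35 had reads in 52 of 59 libraries and 5 of 24 controls, and DHX58, BST2 and IFITM3 had reads in 1 control each.

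In the remaining lists, to be read against 11.0% higher and 6.8% lower over all genes, counts of higher and lower genes were 5 and 0 of 35 in G2/M, with TPX2 common higher (log2 0.32), 3 and 4 of 38 in G1/S, 3 and 3 of 30 in the amino-acid stress response, 2 and 2 of 22 endoplasmic reticulum chaperones, and 2 and 1 of 25 other chaperones. They were 3 and 2 of 31 hypoxia and glycolysis genes, with PKM common lower (log2 −0.43), 5 and 3 of 28 apoptosis genes, 1 and 3 of 34 cytoskeletal genes, with VIM higher (log2 0.49), 6 and 2 of 19 S100 proteins and annexins, 2 and 2 of 18 YAP targets, and 1 and 3 of 19 histone genes. Among 10 HEK293T markers 1 was higher and 1 lower, and of 12 tested markers of other cells only COL3A1 was called, higher, at a median of 0.04 CPM against 0.

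The common lower mRNAs had GC-rich 3′ UTRs. Their counted bases were 58.2% GC at the median, against 46.8% in the common higher genes and 43.8% over all tested genes, and the counted length was 1138.5 bases against 1180 and 1867. When the 9105 genes at 10 CPM or more were cut into 10 bins of equal size by GC content, the median log2 difference ran from 0.05 in the lowest bin to −0.20 in the highest (57.5% to 74.6% GC). In that top bin 327 of 908 genes (36.0%) were called lower, against 14.8% in bin 9, 10.0% in bin 8 and 3.96% in bin 1. It held 72 of the 130 common lower genes at that level. Each arm dropped there, with medians of −0.18 in MAZ, −0.19 in PHF7, −0.15 in ZMAT3, −0.26 in ZMAT5 and −0.18 in ZNF706, while BRCA1 against NT had 0.03.

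An offset for GC fitted in each library took the top bin's median to −0.01. After it, 224 genes were common higher and 95 common lower, and these held 202 of the 223 and 81 of the 132. SCAF1, PTMS and PRKCSH were among the named genes above 55% GC. Whether GC content acts through the libraries or the cells was not tested, and the offset removes either.

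**Figure D3:**
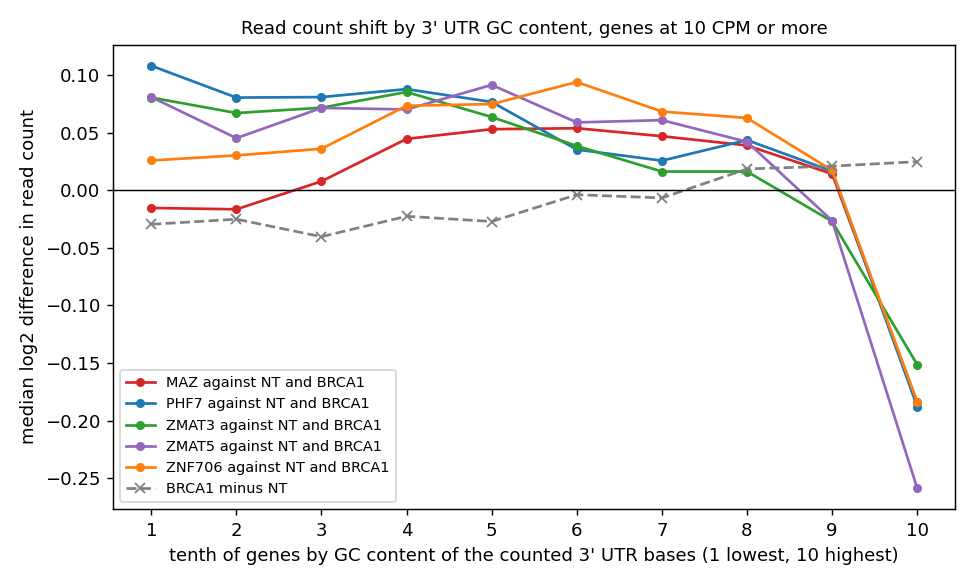
Median log2 difference in read counts (vertical axis) by bin of 3′ UTR GC content (horizontal axis, 10 bins of equal size) over 9105 genes at 10 CPM or more, for each arm against NT and BRCA1 (solid lines) and BRCA1 against NT (dashed). The arms run close to 0 through bin 9 and fall to between −0.26 and −0.15 in the highest, where the dashed line is at 0.03.

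Chase time was a factor in each fit, and the 5-arm difference depended on it in 381 genes (2.55%). The 6 genes with the smallest adjusted p were also called with BRCA1 alone as the control side, but not with NT alone. Values at 4 h are given for NCAM1, LMF2 and KLHDC8B, in which the BRCA1 libraries were below those of NT. NCAM1, a neural adhesion molecule, was at 0, 0 and 0.15 CPM in the 3 BRCA1 libraries of 4 h, but at 14.1 to 48.4 in NT at 4 h and 19.7 to 31.3 in BRCA1 at 2 h. Its 5-arm log2 difference was −0.41, −0.14, 3.83 and 0.96 at 0, 2, 4 and 8 h (adjusted p = 2.07e-05). LMF2, a lipase maturation factor, was at 0.58 to 1.68 CPM in those libraries and 14.5 to 26.8 in NT at 4 h, and KLHDC8B at 0 in all 3 and at 0.37 to 5.50 in NT at 4 h. With NT alone as the control side, an alternative added after the data were seen, 89 genes depended on chase time, 45 of them among the 381. None of the 6 genes with the smallest adjusted p was among those (adjusted p = 0.053 to 0.92).

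Label was read as the T>C rate, conversions over covered T positions. Pooled over 5124 genes, the rate at 0 h was 1.80% ± 0.08 (SD, n = 3) in NT and 1.72% ± 0.03 in BRCA1. The MAZ arm had 2.95% ± 0.19, PHF7 2.26% ± 0.07, ZMAT3 3.01% ± 0.52 and ZNF706 2.31% ± 0.21, all above both controls, and ZMAT5 had 1.28% ± 0.04, below both. At 8 h it was 0.66% and 0.68% in the controls, and 0.90% in MAZ, 0.94% (n = 2) in PHF7, 1.19% in ZMAT3, 0.87% in ZNF706 and 0.55% in ZMAT5. Over the whole chase the geometric means were 1.16% in NT and 1.14% in BRCA1 and, in that order of arms, 1.92%, 1.61%, 2.08%, 1.54% and 0.92%.

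The mean of the 5 arms was thus higher by log2 0.44, but with ZMAT5 on the other side, and an exact two-sided permutation of the 7 arms gave p = 0.286. That test has 21 assignments and cannot go below 0.0952. The loss of label per hour did not separate the sides either: ln slopes were −0.126 in NT and −0.120 in BRCA1, and −0.148 in MAZ, −0.113 in PHF7, −0.121 in ZMAT3, −0.109 in ZMAT5 and −0.130 in ZNF706, a difference of −0.0012 per h (exact permutation p = 1). Between 30.4% and 43.1% of the 0 h rate was left at 8 h across the 7 arms.

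**Figure D4:**
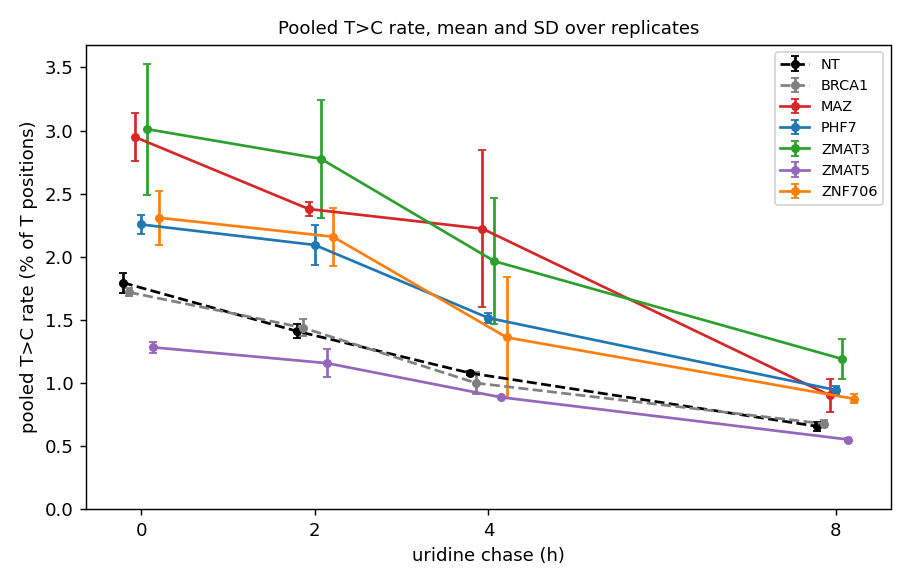
Pooled T>C rate in percent (vertical axis) against hours of uridine chase (horizontal axis), mean and SD over 3 replicates (2 for PHF7 at 8 h), with NT and BRCA1 dashed and points set slightly apart sideways. MAZ, ZMAT3, ZNF706 and PHF7 start above the controls and ZMAT5 starts below them, and all 7 curves fall.

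Gene by gene, the level of label followed the pooled rate. Of 6759 genes with enough coverage, 5782 (85.5%) were higher in the 5-arm mean and 0 (0.0%) lower by edgeR on conversions, whereas BRCA1 against NT gave 3 (0.0444%). Arm medians were log2 0.95 in MAZ, 0.69 in PHF7, 1.12 in ZMAT3, 0.58 in ZNF706 and −0.21 in ZMAT5, so only 66 genes (0.976%) were higher in each of the 5 arms, and 3501 were with ZMAT5 left out. CTSC, cathepsin C, had a rate of 0.174% to 3.93% (median 1.72%) against 0% to 1.35% (median 0.386%) and was higher by log2 1.93 (SE 0.28, adjusted p = 3.5e-08), with 1.24 in ZMAT5 at the least. LRRC1, a leucine-rich repeat protein, had a median of 1.01% against 0.00289%, and no conversion in 12 of 24 controls and 0 of 59 other libraries.

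Relative label was the same test with each library's own pooled rate as offset, which asks whether a gene is labelled more than its library as a whole. It was higher in 894 genes (13.2%) and lower in 177 (2.62%), and BRCA1 against NT gave 34 (0.503%). The shift went with abundance: its median was log2 0.48 in genes at 20 to 50 CPM, 0.22 at 50 to 100 CPM and 0.00 at 100 CPM or more. In the genes called higher, 12.6% of values in the controls were at 0 conversions, against 0.73% in the 5 arms. Over all 6759 genes these shares were 6.20% and 0.479%. Sparse coverage of the controls thus moved with the shift, and its part was not tested.

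Common relative label was higher in 18 genes (0.266%) and lower in 1 (0.0148%). Besides CTSC (log2 1.44, SE 0.27) the 18 included TBK1, a kinase of innate immune signalling (log2 1.75, SE 0.35, adjusted p = 0.000296), at a median rate of 1.05% against 0.0339%, and the lysosomal transporters SLC36A4 (log2 2.78, SE 0.42) and MFSD8 (log2 2.64, SE 0.46). SLC36A4 and MFSD8 had no conversion in 8 and 12 of 24 controls. The relative label of MFSD8 also differed between the 2 controls (BRCA1 minus NT log2 −3.63, edgeR adjusted p = 0.021). The single lower gene was AURKB, Aurora kinase B of the chromosomal passenger complex, at 280.1 CPM with conversions in all 83 libraries. Its pooled rate at 0 h was 2.73% in the 5 arms and 2.74% in the controls, whereas the libraries as a whole were apart, so its relative label was lower by log2 −0.44 (SE 0.06, adjusted p = 1.66e-06), from −0.36 in ZMAT5 to −0.50 in MAZ. FLCN, folliculin, and ZC3H4, a zinc-finger protein that ends noncoding transcription, were lower too (log2 −0.71 and −0.50), though not in each arm.

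Half-lives were fitted to 2905 genes in all 7 arms. Their medians were 3.07 h in NT and 3.08 h in BRCA1, and 3.73 h in MAZ, 4.02 h in PHF7, 4.20 h in ZMAT3, 3.82 h in ZMAT5 and 3.61 h in ZNF706. All 5 arms lay above both controls, ZMAT5 included, by log2 0.33 on average. The exact two-sided permutation over arms gave p = 0.0952, the smallest it can give. With a straight line fitted instead, the difference was log2 0.20 and the same permutation gave p = 0.19. A gene was longer-lived in each of the 5 arms than in both controls in 769 of 2905 cases (26.5%) and shorter-lived in 39 (1.34%). The difference was present in each class of abundance with enough genes: log2 0.51 in 730 genes at 20 to 50 CPM, 0.37 in 944 at 50 to 100 CPM and 0.25 in 1217 at 100 CPM or more. In the last class the medians were 4.39 h in NT, 4.57 h in BRCA1, and 5.03 h in ZNF706 to 5.90 h in ZMAT3. Half-lives were fitted to rates set to 1 at 0 h, and the part of depth or of the level of label in them was not tested.

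**Figure D5:**
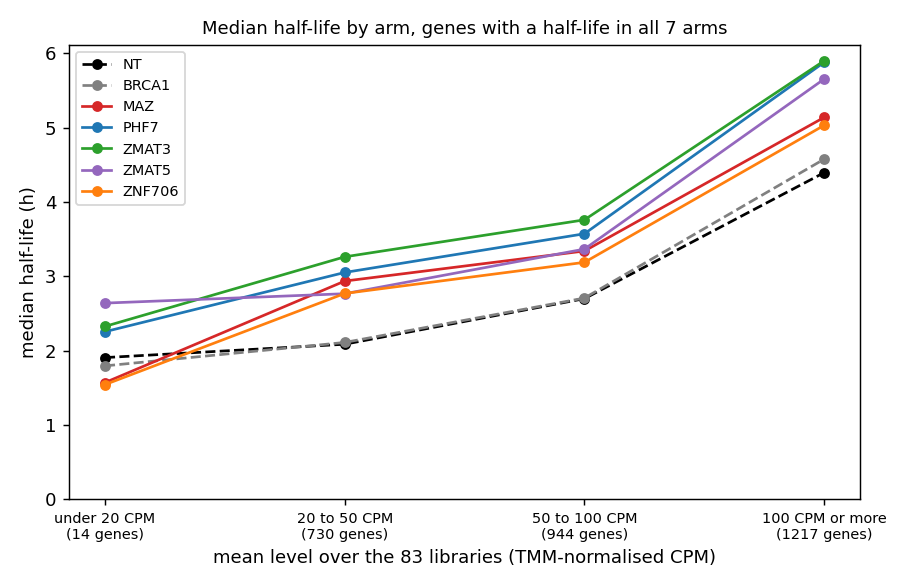
Median half-life in hours (vertical axis) in 4 classes of abundance (horizontal axis; 14, 730, 944 and 1217 genes) for each arm, with NT and BRCA1 dashed. In the 3 classes above 20 CPM the 5 arms lie above both controls; the lowest class holds 14 genes and shows no such order.

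The loss of label per gene was tested as a difference in slope over chase hours. It called 480 genes (7.1%) slower and 36 (0.533%) faster in the 5-arm mean, while BRCA1 against NT gave 477 (7.06%) in either direction, a share close to that of the slower genes. By this slope, slower loss in each arm was found in 14 genes (0.207%) and faster loss in 0 (0.0%). The fitted half-lives did not follow that order in all 14. C17orf75 had 5.25 h in NT but 4.35 h in MAZ and 4.25 h in ZNF706, and SNRNP35 had 1.98 h in NT but 1.83 h in MAZ. In BYSL and UTP15 the half-life was longer in each arm than in both controls. Among the 14, those with the most coverage were MRPL46, of the mitochondrial ribosome, SMIM13, a small membrane protein, and BYSL and UTP15, which act in assembly of the small ribosomal subunit. UTP15 kept a pooled rate of 2.81%, 2.45%, 1.23% and 0.277% at 0, 2, 4 and 8 h in the 5 arms, against 2.08%, 0.636%, 0.324% and 0.00765% in the controls, a difference of log2 0.52 per h (SE 0.09, adjusted p = 0.000119). BYSL differed by log2 0.49 per h (SE 0.07, edgeR adjusted p = 3.86e-06) and MRPL46 by 0.45 (SE 0.07, edgeR adjusted p = 3.34e-05). Their pooled control rates at 8 h were only 0.0109% and 0.0276%, against 0.223% and 0.488% in the 5 arms. No conversion was found in 2 and 1 of the 24 controls. The half-life of BYSL was 2.43 h in NT and 1.82 h in BRCA1, and 2.67 h in ZMAT3 to 3.49 h in PHF7.

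The others with the largest values were TEDC2, a centriole protein (log2 1.01 per h, SE 0.18), SNRNP35, of the U11 and U12 snRNPs of the minor spliceosome (0.99, SE 0.16), AASDH (0.94, SE 0.18) and E2F7, a repressor of cell-cycle genes (0.75, SE 0.12). SNRNP35 had a rate of 0.305% against 0.00314% at 8 h, while its read count was lower by log2 −0.59 in the 5-arm mean, and it had no conversion in 8 of 24 controls and 1 of 59 other libraries. Control values with 0 conversions made up 10.1% over the 480 slower genes, against 0.547% in the 5 arms. Over all 6759 genes these shares were 6.20% and 0.479%. ZNF680, with the largest 5-arm value (1.12 per h), also differed between BRCA1 and NT (log2 −2.11 per h, adjusted p = 0.00122). GIT2, an Arf GTPase-activating protein, and ERCC1, a repair nuclease subunit, were among the faster 36 (log2 −0.47 and −0.42 per h).

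The common genes were then looked up in label. Of the 132 common lower mRNAs 119 had label enough to test, and 4 of them lost it slower, 1 faster, 1 was relatively higher and 6 lower, beside 7.1%, 0.533%, 13.2% and 2.62% of all 6759 genes. Their median half-life shift was log2 0.31 over 44 genes, beside 0.33 over all 2905. Of the 35 testable common higher genes 1 was slower, 2 were relatively higher and 2 lower, with a median half-life shift of 0.36 over 15 genes. MAZ itself had a higher level of label in the 5-arm mean (log2 0.32, adjusted p = 0.000373), and its relative label differed by log2 −0.13 (adjusted p = 0.136).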

How the data were processed

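Per the labels and the study's methods, poly(A)-primed 3′ end libraries were read as single 150-base reads and aligned by the authors to hg38 with SlamDunk 0.4.3, with reads that map to several places kept. Whether variants were masked, and how strand was treated, is not given in the sources used here. The deposited tables hold, for 69079 3′ UTR intervals, read counts, multimapped counts, T coverage and T>C conversion counts, a CPM column and a conversion rate, a fraction. The authors' CPM served as the coverage filter for label, and their conversion-rate fraction was checked against the counts. Intervals were summed to 19761 Ensembl genes, 19501 of them named by GENCODE release 44, whose hg38 coordinates are given. In 2516 genes counted bases are shared with another gene, which is stated where they are named.

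Counts were tested with edgeR 4.0.16 (quasi-likelihood, TMM, filterByExpr, arm and chase time as factors, 73 residual degrees of freedom) in R 4.3.3. The contrast was the mean of 5 arms minus the mean of NT and BRCA1. Chase time was tested on 28 groups of arm and time. Label was tested in the same way on conversions with T coverage (log) as the offset, for genes that passed 5 CPM in 2 or more replicates of each arm and time, and the slope was fitted over hours. Half-lives followed the methods: replicate means set to 1 at 0 h, first-order decay, R2 over 0.6. Pooled rates and half-lives were compared by exact permutation of 7 arms (scipy 1.17.1). Alternatives used DESeq2 1.42.0 and limma 3.58.1. The edgeR steps were tested on simulated data in which all arms had the same spread and the 5 arms did not differ among themselves. The libraries used here differ in both, which that simulation does not cover. Replicates are biological per the study's methods, so p-values over libraries measure the spread within 1 line and 1 infection scheme. With arm as a factor, that is the spread of libraries within an arm and not the spread between arms.

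Named were the targeted genes and, among common genes of at least 10 CPM with under 50% multimapped reads and a symbol, the 12 in each direction with the largest difference in their weakest arm. Up to 4 called genes in each direction were open to naming from each of 32 lists, 6 in each direction from each label test and 6 for chase time. Common label genes, genes from the fit over arms, thin genes and DOHH were picked after their values were seen. The members and lists were chosen with earlier results of these data known. Of the lists, the 20 noncoding host transcripts have no gene in the tables.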

Additional observations from a re-analysis of the deposited data

Results flagged for a closer look

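The 5 arms differed from one another in 4530 genes by read count (edgeR, adjusted p under 0.05), so a shift common to them is a smaller set than the differences between them. Among the genes named, the arms differed in the targeted mRNAs MAZ (adjusted p = 2.76e-43), ZMAT3 (3.03e-09), ZMAT5 (1.26e-15) and ZNF706 (1.37e-05), each lowest in its own arm. They also differed in size, though not in sign, in SPTSSA (adjusted p = 0.000555), SNAPIN (0.0358), SCAF1 (0.0171), PTMS (0.0125) and NDUFB7 (0.00199).

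The difference from NT and BRCA1 changed with chase time in 381 genes. The smallest adjusted p-values were those of NCAM1 (2.07e-05), DDX39B, FMC1-LUC7L2, LMF2 and KLHDC8B (0.000346 each) and ATP6V1G2-DDX39B (0.000382). FMC1-LUC7L2, DDX39B and ATP6V1G2-DDX39B share counted bases with other genes, and all reads of the last pair were multimapped. MED9, a subunit of Mediator named among the higher mRNAs, had log2 differences of −0.09, 0.50, 1.56 and 0.58 at 0, 2, 4 and 8 h (adjusted p for chase time = 0.00667, and 0.179 with NT alone as control).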

How the results depend on the processing

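Named genes mostly kept direction: over 186 genes and all alternatives, 4244 comparisons of read counts gave 3384 with the same call, 843 with the call lost, 2 with a call gained and 15 with the sign changed. For 30 label genes, 245 of 326 kept the call, 80 lost it and 1 changed sign. Read counts gave 413 higher and 391 lower genes in the 0 h libraries alone (common 29 and 17), 412 and 277 with the arm as a random block, 3 and 44 with counts summed per arm, and 973 and 380 at a fold over 1.5 (common lower 47). Alternatives added after the data were seen gave 603 higher at 10 CPM or more (common 26), and 3196 higher (common 454) with a quality weight per arm, where BRCA1 against NT gave 86 and the arms differed in 7902; 49 of the 223 common higher and 118 of the 132 common lower genes were common there too. DESeq2 gave 137 common higher. Without 1 replicate, genes numbered 1091 to 1299 higher, 768 to 856 lower, 92 to 135 common higher and 65 to 92 common lower, 278 to 363 for BRCA1 against NT, 2568 to 2799 among the arms and 228 to 435 by chase time. Without 1 arm they numbered 1333 to 1754, 922 to 1059, 211 to 337 (most without ZNF706) and 131 to 176. Chase time gave 89 with NT alone and 961 with BRCA1 alone as control. The cause of these moves was not tested.

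In label, genes over 20 CPM gave 3150 higher in level (common 12), 206 relatively higher (common 2), 190 slower (common 2) and 196 for BRCA1 against NT in loss. The limma fit of log2 rates gave 353 common in level, 3660 relatively higher (common 519) and 1041 slower. With BRCA1 alone as control the common counts were 131 in level, 127 in relative label and 118 slower, with 187 faster genes, and NT alone gave 59 in relative label, 53 slower and 91 faster. Sums per arm and time gave 105 relatively lower, 86 slower and 1 faster. Without 1 replicate the counts were 16 to 23 common in level, 205 to 313 relatively higher (common 0 to 7), 86 to 92 relatively lower, 270 to 439 slower (common 3 to 11) and 25 to 39 faster. Without 1 arm they were 45 to 3501 (most without ZMAT5), 473 to 1021 (common 5 to 42), 96 to 174, 288 to 432 (common 3 to 21) and 13 to 28.

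The sign changed in BRCA1 (log2 −0.015), PHF7 (−0.46), BIK (−0.80) and NCAM1 (−0.028) with NT alone, and in MED9 (−0.096), MT1X (−0.092) and NCAM1 (−0.42) at 0 h alone. Without 1 arm or 1 replicate, CANX ranged from −0.46 to 0.0075 (positive without the PHF7 arm), NCAM1 from −0.069 (without the MAZ arm; −0.062 without replicate 1) to 0.19, and H1-4 from −3.11 to 0.040 (without replicate 3). LMF2 changed sign with BRCA1 alone (0.030), GC correction (0.19), the random block (0.079) and quality weights (0.28), and the slope of INO80D did in limma (−0.19). The difference in slope of the pooled rate, near 0, was 0.0047 per h from the share of T>C reads, 0.028 from 0 to 4 h, 0.0021 against NT alone and −0.0047 to 0.0010 without 1 replicate. The difference in pooled rate was log2 0.32 to 0.47 and that in half-life 0.20 to 0.37 over their alternatives.

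Replicate numbers did not pair the libraries: deviations of same-numbered libraries had a mean correlation of 9.79e-05 and 36.1% lay closest to their own number. With the replicate block, 1694 genes were higher and 972 lower, 203 and 132 of them common. The block moved no count by over 1.5 times: in label it gave 5824 higher, 963 and 177 relatively higher and lower, and 477 and 35 slower and faster.

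At equal depth, by thinning each library to 4577042 reads, 161 were common higher and 132 common lower. Controls had fewer reads and a wider spread between replicates, and genes under 1 CPM make up 149 of the 223 common higher ones.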
